A study of Penaeus japonicus with 16 samples.

Results

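The hepatopancreas and the lymphoid organ of the kuruma shrimp (Penaeus japonicus) were compared probe by probe on single-colour custom oligonucleotide arrays. The comparison took 3 hepatopancreas arrays, labelled 1, 3 and 4, and 3 lymphoid organ arrays, labelled 1, 2 and 3, out of 16 arrays in 5 tissues (the others were gills, hemocytes and muscle). All animals were untreated and looked healthy according to the labels. Whether each array holds RNA of a different animal is not stated there, so the p-values below measure the spread between these samples, which may be technical. Members were all 13349 probes that were neither controls (60) nor white spot virus probes (526), of which 11632 carried the name of a protein. A probe entered the test if all usable arrays of the hepatopancreas, or all those of the lymphoid organ, detected it. This left 9165 probes, of which 5350 were detected on all 6 arrays, 56 on all usable arrays of both tissues with a missing spot, 565 on all arrays of the hepatopancreas but not of the lymphoid organ, and 3194 on all arrays of the lymphoid organ but not of the hepatopancreas.

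The hepatopancreas is the digestive gland of decapods. It secretes digestive enzymes, absorbs and stores nutrients, detoxifies, and releases hemocyanin, the copper protein that carries oxygen in the blood. The lymphoid organ, found in penaeid shrimps, is a paired organ of folded tubules whose walls filter hemolymph and hold hemocytes, and it is known for clearing foreign particles. Levels are given as log2 of a probe's signal over the 75th percentile of its array, so 0 stands for that percentile, and differences are hepatopancreas minus lymphoid organ. In whole tissue, fewer cells of a type and less RNA per cell cannot be told apart. Probe names are those of the array's annotation, several probes may share a name, and a cluster number tells such probes apart.

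The hepatopancreas arrays detected 50.3, 52.9 and 77.7% of the probes (arrays 1, 3 and 4), against 84.5, 71.2 and 71.0% on lymphoid organ arrays 1, 2 and 3. The arrays of the lymphoid organ correlated with each other at 0.903 to 0.933 over the tested probes, and arrays of different tissues at 0.502 to 0.634. Hepatopancreas 4 stood apart, with correlations of 0.826 and 0.834 with hepatopancreas 1 and 3, which correlated with each other at 0.941. Slides were read from the array barcodes in the scan names that the labels give. By these, hepatopancreas 1 and lymphoid organ 1 and 2 were on slide 1. Slide 2 held hepatopancreas 3 and 4 and lymphoid organ 3.

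The named probes in which hepatopancreas 4 exceeded both other hepatopancreas arrays most included oocyte proteins of penaeids. Chosen after their values were seen, they began with thrombospondin (cluster035021), ovarian peritrophin (cluster010668) and cortical rod-like protein (cluster014029), which are known from the cortical rods that surround the egg membrane. Ovarian peritrophin had log2 levels of -2.47, -2.90 and 10.53 in hepatopancreas arrays 1, 3 and 4, against -0.94, -1.84 and -1.77 in lymphoid organ arrays 1, 2 and 3. Cortical rod-like protein had levels of -2.42, -4.84 and 9.95 in the hepatopancreas, against -1.93, -4.01 and -3.10 in the lymphoid organ. Among the 6 arrays hepatopancreas 4 alone was high for these probes, and their tissue differences did not pass the test (adjusted p = 0.44 for ovarian peritrophin and 0.37 for cortical rod-like protein). In 181 of 8102 named probes hepatopancreas 4 lay above both other hepatopancreas arrays by at least 3 on the log2 scale, and in 108 it lay below both by at least 3. The part of ovarian RNA in the results of this array was not tested, so counts are also given without it.

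The tissues differed widely. At an adjusted p below 0.05 and at least a 2-fold difference in limma's test, 1180 probes (12.9% of those tested) were higher and 1297 (14.2%) were lower in the hepatopancreas, together 27.0%. The probes higher in the hepatopancreas had the larger fitted differences, with a median log2 difference of 3.60, against -2.75 for those lower. Of the higher probes 689 were detected on all 6 arrays, and of the lower probes 469. A further 311 higher and 571 lower probes were detected on only part of the 6 arrays, but on at least 1 of the dimmer tissue. The lowest detected level was -2.41 and -2.62 on hepatopancreas arrays 1 and 3, against -4.98 to -3.79 in the lymphoid organ. The part of these floors in the contrast of sizes was not tested. A difference of at least 100-fold was found for 235 of the higher probes and for 28 of the lower ones. These counts use the lower bound explained below for undetected probes, which reduces the lower side more. At 4-fold, such counts were 1070 higher and 930 lower, against 1071 and 1048 by the fitted differences. Over all tested probes the median difference was -0.18, and the median standard error was 0.61. In the lymphoid organ 180 of the higher probes were detected on no array, and in the hepatopancreas 257 of the lower probes were. For such probes the fold is printed as "at least": the brighter tissue's mean against the higher of the dim probe's own signal and the array's lowest detected signal. This bound was under 2-fold for 59 of the lower probes, whose size therefore rests on the fitted value. Among all tested probes, 43.3% had groups that did not overlap, and the same held for 1163 of the higher and 1286 of the lower calls.

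**Figure D1:**
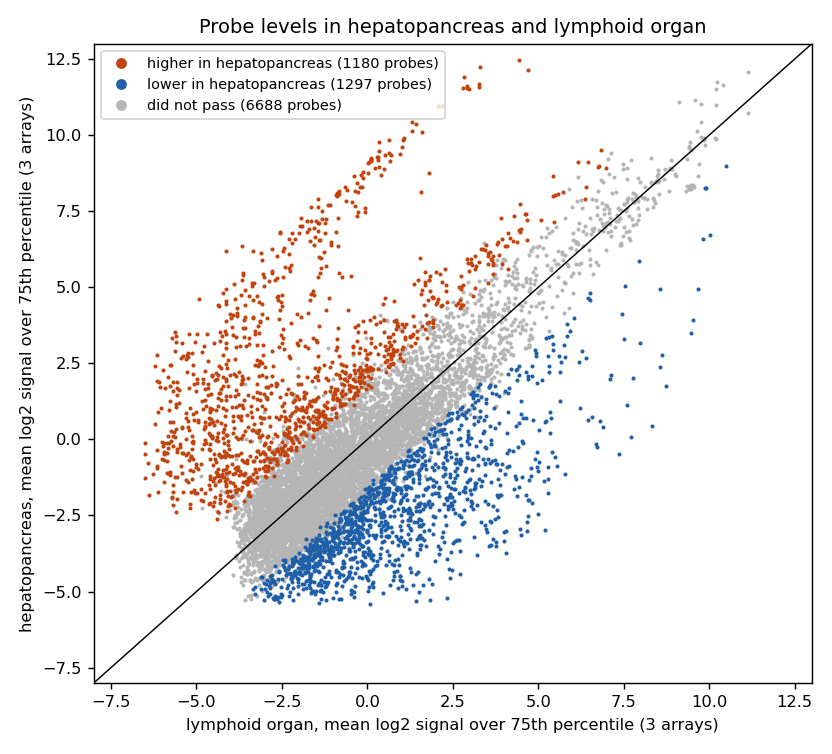
Mean log2 signal over the array's 75th percentile in the hepatopancreas (vertical axis) and in the lymphoid organ (horizontal axis) for the 9165 tested probes, each the mean of 3 arrays. Orange probes (1180) were higher and blue probes (1297) lower in the hepatopancreas, grey probes did not pass, and the line marks equal levels. A band of orange probes runs parallel to the line at log2 differences of about 8 to 9.

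With slide as a block, 988 probes were higher and 962 lower. Within slide 1 the counts were 879 and 509, and within slide 2 they were 522 and 324. Without hepatopancreas 4, 1710 probes were higher and 1956 lower, and without lymphoid organ 2 the counts were 827 and 831. Of all 2477 calls, 1916 were kept with slide as a block and 2398 without hepatopancreas 4. Of the 133 probes named by the rule in the methods, all were called without hepatopancreas 4, and 12 were not called with slide as a block. These 133 were picked for large differences on the same arrays, so they do not stand for all calls. No named probe changed sign in either fit.

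Trypsins and chymotrypsins were higher in the hepatopancreas almost throughout. Of 21 tested probes for trypsins and chymotrypsins, serine proteases that cut dietary protein, 20 were higher in the hepatopancreas and 0 were lower, against 12.9% and 14.2% of all probes. Their median difference was 8.67 on the log2 scale (8.44 with slide as a block, 8.84 and 8.12 within slides 1 and 2). Trypsin (cluster018142) had log2 levels of 9.62, 10.93 and 8.98 in hepatopancreas arrays 1, 3 and 4, against 0.54, 0.08 and 1.28 in lymphoid organ arrays 1, 2 and 3. This was a difference of 9.21 ± 0.62 (SE, n = 3 each), or 593-fold, with an adjusted p of 6.85e-06. Chymotrypsin-like protein (cluster021507) differed by 9.30 ± 0.59, or 631-fold. The 1 tested probe that did not pass, trypsin domain containing 1 (cluster033951), had a difference of -0.998 (adjusted p = 0.22).

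Carbohydrate-degrading enzymes were mixed. Of 65 tested probes, 31 were higher and 6 lower in the hepatopancreas, with a median of 1.39 (1.73 with slide as a block, 2.26 and 1.17 within slides 1 and 2). Acidic mammalian chitinase (cluster025531), which cleaves chitin, showed the largest fitted difference of all named probes. Its levels were 5.82, 7.22 and 5.57 in the hepatopancreas, against -3.32, -3.72 and -5.37 in the lymphoid organ, where 1 of 3 arrays detected it. The fitted difference was 10.34 ± 0.70, or 1298-fold (adjusted p = 6.85e-06), and rests partly on undetected signal. With a common floor under the signals it was 8.62, below the 9.30 of chymotrypsin-like protein (cluster021507), so its first rank depends on the floor. Alpha-amylase (cluster008526), the starch-cleaving enzyme, was 413-fold higher in the hepatopancreas (8.69 ± 0.63, adjusted p = 8.56e-06). Of 23 tested chitinase probes, 13 were higher by 6.11 to 10.34 and 2 were lower. One of these, named acidic mammalian chitinase as well (cluster006560), was 81.3-fold lower in the hepatopancreas, with levels of -1.04, -2.62 and -4.17 there, against 2.22, 3.97 and 5.01 in the lymphoid organ.

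Of 46 tested probes for metallo- and exopeptidases, which include enzymes that trim peptides from their ends, 21 were higher and 5 lower. Without hepatopancreas 4, 8 were lower. The list's median was 1.29 (1.30 with slide as a block, 1.65 and 1.40 within slides 1 and 2). Carboxypeptidase a2 (cluster026346), which removes carboxy-terminal residues, had levels of 7.58, 8.80 and 6.53 in the hepatopancreas, against -2.24, -1.44 and -0.68 in the lymphoid organ (9.09 ± 0.68, adjusted p = 1e-05). Soluble x-prolyl aminopeptidase (cluster036023) was undetected on all lymphoid organ arrays and at least 138-fold higher in the hepatopancreas. Among lipases, which release fatty acids from fat, 7 of 19 tested probes were higher and 3 lower, with a median of 0.62 (0.69 with slide as a block, 1.16 and 0.05 within slides 1 and 2). Pancreatic triacylglycerol lipase (cluster004191) was 551-fold higher in the hepatopancreas (9.11 ± 0.55, adjusted p = 6.85e-06), at 5.45, 6.10 and 4.83 there, against -3.36, -3.47 and -4.12. It was detected on 1 of 3 lymphoid organ arrays, and with a common floor under the signals the difference was 7.87.

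Gut peritrophins belong to the peritrophic matrix, the chitin and mucin sheet that encloses food in the gut. The name is shared by oocyte proteins such as the ovarian peritrophin given above, and probes were grouped by name alone. Of 14 tested peritrophin probes, 7 were higher in the hepatopancreas, by 3.93 to 8.85, 0 were lower and 7 did not pass. Peritrophic matrix protein 5-a (cluster028586) had levels of 8.67, 9.84 and 8.33 in the hepatopancreas, against 0.46, -0.24 and 0.81 in the lymphoid organ (8.60 ± 0.57, 388-fold, adjusted p = 6.85e-06). Their wider list with cuticle proteins and mucins had 15 higher and 0 lower of 68 (25 higher without hepatopancreas 4; median 1.17, or 1.13 with slide as a block, 1.97 and 0.40 within slides 1 and 2). Cuticle proteins in it were higher in 4 of 47 tested probes.

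**Figure D2:**
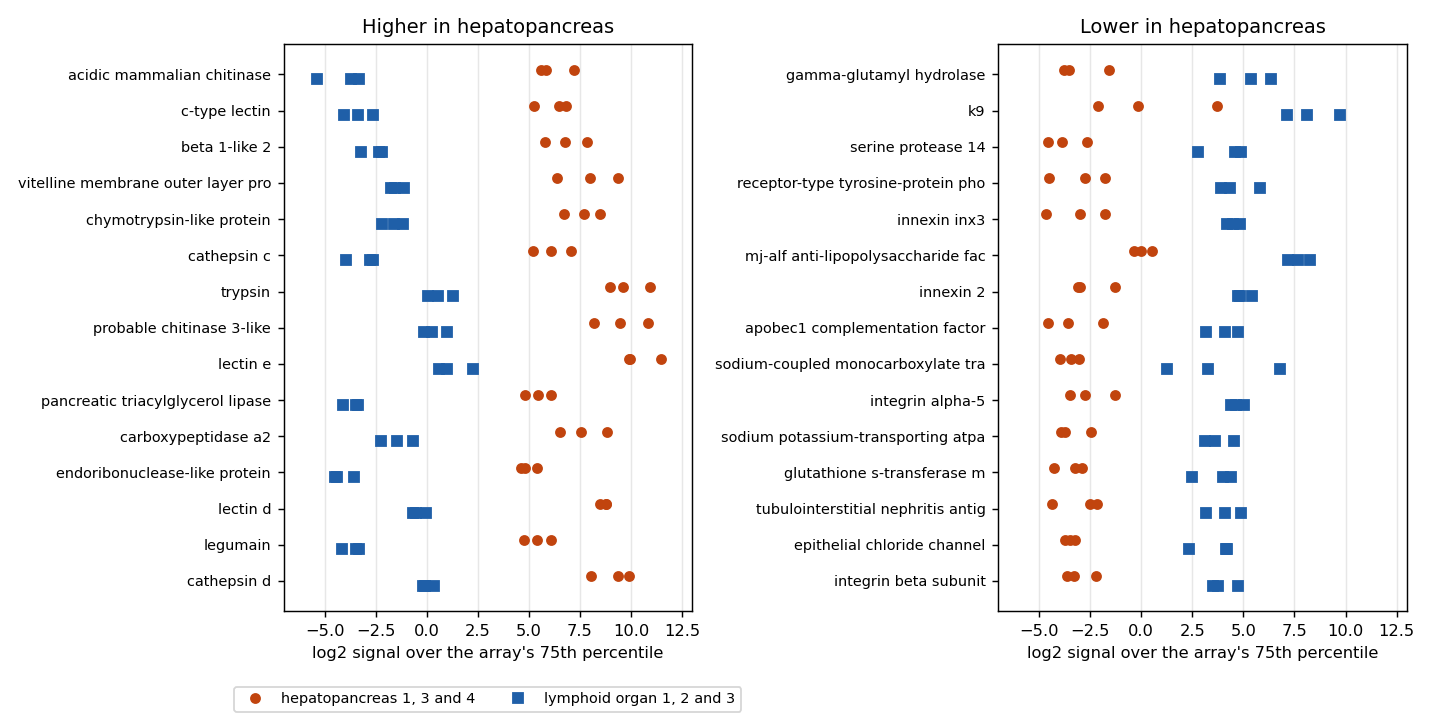
Log2 signal over the array's 75th percentile (horizontal axis) on each array for the 15 named probes with the largest differences in each direction, hepatopancreas arrays as orange circles above lymphoid organ arrays as blue squares. In each of these 30 probes the 2 tissues' arrays did not overlap; the acidic mammalian chitinase probe lay between 5.57 and 7.22 in the hepatopancreas and between -5.37 and -3.32 in the lymphoid organ.

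Hemocyanins, the oxygen carriers, moved almost as a block. Of 15 tested probes 14 were higher in the hepatopancreas and 0 lower, with a median of 8.50 (8.36 with slide as a block, 8.78 and 7.89 within slides 1 and 2) and the middle 50% of probes between 8.33 and 8.68. Hemocyanin (cluster027310) had levels of 8.58, 10.25 and 7.57 in hepatopancreas arrays 1, 3 and 4, against -0.25, -0.25 and 0.11 in the lymphoid organ (8.93 ± 0.67, 489-fold, adjusted p = 1.01e-05). Hemocyanin subunit y differed by 7.44 ± 0.61, with levels of 12.64, 12.87 and 10.93 in the hepatopancreas, against 4.51, 5.27 and 4.34 in the lymphoid organ. The probe that did not pass, hemocyanin subunit 1 (cluster012446), differed by 0.90 (adjusted p = 0.25).

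A set of sequences named lectin a to lectin f behaved in the same way. All 13 were tested and all were higher in the hepatopancreas, by 8.49 to 9.13. Lectins are proteins that bind sugars, many of them on microbial surfaces. Lectin d had levels of 8.48, 8.76 and 8.79 in the hepatopancreas, against -0.50, -0.65 and -0.02 in the lymphoid organ (9.07 ± 0.47, 536-fold, adjusted p = 6.85e-06). Isoforms of lectin a and of lectin b are near-identical by name and may share target RNA, so these 13 probes are not independent.

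C-type lectins, which bind sugars with the help of calcium, split. Of 52 tested probes 32 were higher and 10 lower, with a median of 5.55 (5.58 with slide as a block, 6.29 and 4.95 within slides 1 and 2). Taken as 1 probe for each distinct name, the median was -0.25, so its sign depends on how repeated names are counted. A c-type lectin (cluster006771) had levels of 6.48, 6.83 and 5.26 in the hepatopancreas, against -4.05, -3.37 and -2.63 in the lymphoid organ (9.54 ± 0.62, 745-fold, adjusted p = 6.85e-06). Mutant c-type lectin (cluster034846) went the other way, at -1.61, -1.54 and -2.77 in the hepatopancreas, against 3.35, 2.84 and 2.54 in the lymphoid organ (-4.88 ± 0.56, 29.5-fold, adjusted p = 0.000127).

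Other recognition proteins split by family. All 8 tested probes of ficolins and other fibrinogen-related proteins, which recognise microbial sugars through a fibrinogen-like domain, were lower in the hepatopancreas, by 3.50 to 7.12. Fibrinogen-like protein 1-like (cluster012934) was detected on no hepatopancreas array and was at least 57.8-fold lower there, with lymphoid organ levels of 1.58, 3.19 and 3.35. The list as a whole, which includes lectins a to f, had 20 higher and 13 lower of 42 and a median of 2.07 (2.23 with slide as a block, 3.03 and 1.64 within slides 1 and 2).

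Enzymes of detoxification were broadly higher in the hepatopancreas. Of 103 tested probes for cytochrome P450s, which oxidise foreign compounds and steroids, and for conjugating enzymes, 59 were higher and 7 lower. The median was 2.51 (2.42 with slide as a block, 2.57 and 2.29 within slides 1 and 2). Cytochrome p450 probes were higher in 23 and lower in 1 of 35, and sulfotransferases, which attach sulfate, were higher in 15 and lower in 2 of 23. Cytochrome p450 (cluster035931) had levels of 5.09, 5.18 and 3.84 in the hepatopancreas, against -3.92, -2.91 and -3.52 in the lymphoid organ (8.15 ± 0.58, 285-fold, adjusted p = 7.64e-06). Sulfotransferase 1c4 (cluster001799) was 184-fold higher in the hepatopancreas, although its level on hepatopancreas 4, 1.71, was below the 4.70 and 5.34 of the other hepatopancreas arrays. Glutathione S-transferases, which conjugate glutathione, were higher in 7 and lower in 4 of 20. Glutathione s-transferase m (cluster001661) was 135-fold lower in the hepatopancreas, with levels of -4.26, -2.89 and -3.24 there, against 4.39, 3.98 and 2.47 in the lymphoid organ.

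Lipid carriers divided evenly, with 12 of 35 tested probes higher and 12 lower (median 0.60, or 0.51 with slide as a block, 1.13 and 0.63 within slides 1 and 2). Fatty acid binding protein 1b (cluster013973), an intracellular fatty acid carrier, was 368-fold higher in the hepatopancreas (8.52 ± 0.79, adjusted p = 3.19e-05). Epididymal secretory protein e1 precursor (cluster010145), a name used for the cholesterol-binding protein NPC2, was 246-fold higher. Probes for clottable protein, the plasma protein cross-linked in the shrimp's clot, were lower in 2 of 3. Vitellogenin, the yolk precursor, was higher by 3.62 to 4.60 for 3 probes, and vitellogenin 2 was lower by 4.17 and 4.24 for 2 probes. The probe titled vg vitellogenin had levels of 0.29, 1.39 and 3.70 in hepatopancreas arrays 1, 3 and 4, against -3.28, -1.81 and -3.33 in the lymphoid organ (4.60, adjusted p = 0.00297). Its highest level was on hepatopancreas 4, the array with the oocyte proteins.

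Of the 1180 higher probes, 154 had a log2 difference of at least 8, a limit set after the values were seen that fixes their lower end, and the other 1026 ran from 1.47 to 7.99. The middle 50% of the 154 lay between 8.42 and 8.98. Their mean hepatopancreas levels ran from 1.91 to 12.47 and their mean lymphoid organ levels from -6.20 to 4.43. Of the 154, 20 were detected on no lymphoid organ array. The median level of these probes was 7.30, 8.07 and 5.85 on hepatopancreas arrays 1, 3 and 4, and -2.01, -1.44 and -1.37 on lymphoid organ arrays 1, 2 and 3. It was -4.91 in gills, -4.85 in hemocytes and -3.001 in muscle. For 121 of the 154 the lymphoid organ's mean level lay above the mean levels of gills, hemocytes and muscle, and the same held for 569 of all 1180 higher probes (48.2%) and for 2258 of the 9165 tested probes (24.6%).

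The hepatopancreas marker list was summed on each array. The log2 of the summed signal of 93 hepatopancreas marker probes (trypsins, chymotrypsins, amylases, hemocyanins, carboxypeptidases and chitinases) ran from 14.3 to 16.7 in the hepatopancreas, against 6.99 to 7.92 in the lymphoid organ. It ran from 5.59 to 6.23 in gills, 4.65 to 6.13 in hemocytes and 5.09 to 7.58 in muscle. Of these markers, 12 were detected on no hepatopancreas array and 16 on no lymphoid organ array. Of 78 tested markers, 56 were higher and 4 lower in the hepatopancreas. The sums include the chitinase probe (cluster006560) given above as lower in the hepatopancreas, so they are not hepatopancreas signal alone. The summed signal of these markers was thus higher in the lymphoid organ than in gills and hemocytes and overlapped with muscle. Its part in the size of the differences was not tested. The label of the hepatopancreas matched its markers, while no marker gene of the lymphoid organ was among the lists.

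**Figure D3:**
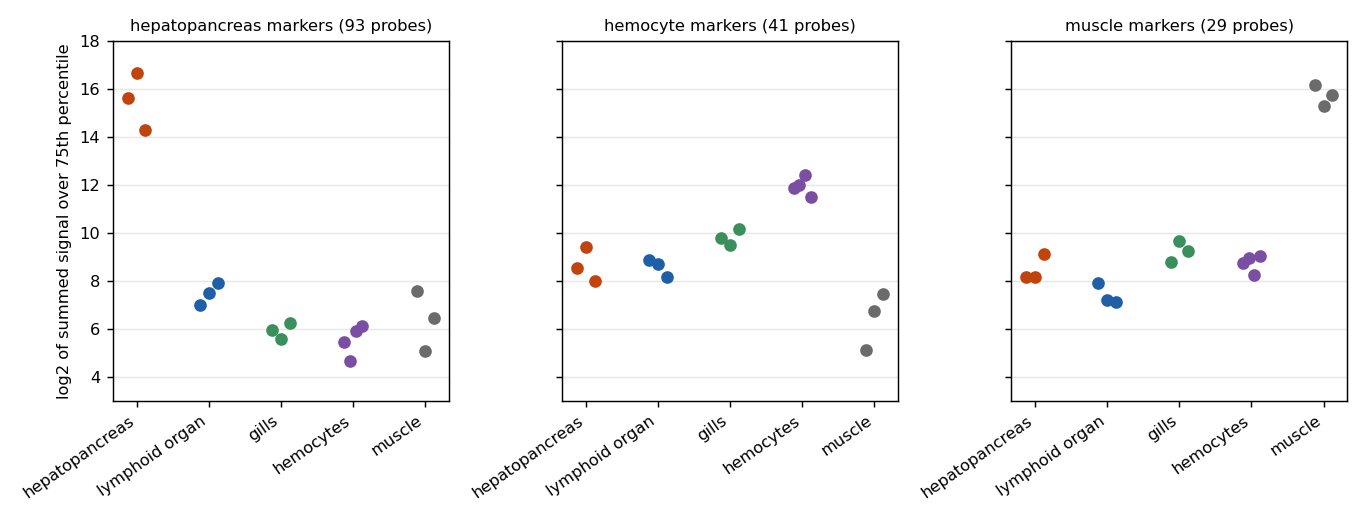
Log2 of the summed scaled signal of 93 hepatopancreas, 41 hemocyte and 29 muscle marker probes (vertical axis) on each of the 16 arrays, 1 point per array, by tissue. Hepatopancreas markers lay at 14.3 to 16.7 in the hepatopancreas and 6.99 to 7.92 in the lymphoid organ, hemocyte markers were highest in hemocytes at 11.5 to 12.4, and muscle markers were highest in muscle at 15.3 to 16.2.

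Antimicrobial peptides and lysozymes were mostly higher in the lymphoid organ. Of 34 tested probes, 5 were higher and 18 lower in the hepatopancreas, with a median of -3.18 (-3.04 with slide as a block, -2.55 and -3.55 within slides 1 and 2). Anti-lipopolysaccharide factors, small peptides that bind bacterial lipopolysaccharide, were lower in 10 of 12 and higher in 0. The probe titled mj-alf had levels of -0.33, 0.55 and -0.01 in hepatopancreas arrays 1, 3 and 4, against 8.28, 7.65 and 7.20 in lymphoid organ arrays 1, 2 and 3 (-7.64 ± 0.52, 200-fold, adjusted p = 6.85e-06). Its mean level in hemocytes was 8.0. Over the 12 tested probes of this family the median level was -0.13 in hemocytes and 3.07 in the lymphoid organ. A further anti-lipopolysaccharide factor (cluster035609) was 125-fold lower in the hepatopancreas, at 1.79, 1.90 and 1.59 there, against 9.74, 8.34 and 8.10.

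Crustins, cysteine-rich antibacterial peptides of crustaceans, went in both directions, with 3 of 18 probes higher and 6 lower. The 6 lower ones differed by 4.58 to 4.75 and carry names of 1 crustin p and 5 crustin-like peptides, which may share target RNA, and their mean hemocyte levels were 7.29 to 7.48. In contrast, crustin p (cluster014343) had levels of 8.05, 8.95 and 7.36 in the hepatopancreas, against 1.14, 2.11 and 1.48 in the lymphoid organ (6.54 ± 0.56, 93.4-fold, adjusted p = 2.13e-05). Lysozymes, which cleave bacterial cell walls, split into 2 higher and 2 lower probes. Lysozyme (cluster027305) had levels of 10.61, 11.35 and 9.18 in the hepatopancreas, against 0.92, 1.51 and 1.85 in the lymphoid organ (8.95 ± 0.62, adjusted p = 7.17e-06). Lysozyme (cluster000012) had levels of 6.79, 3.62 and 0.05 in the hepatopancreas, against 8.30, 10.48 and 9.62 in the lymphoid organ (-5.98, adjusted p = 0.00927), so the hepatopancreas arrays of this probe were far apart.

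Lysosomal proteases split within single names. Of 41 tested probes, 22 were higher and 17 lower in the hepatopancreas, and 2 did not pass. The list's median of 2.69 (2.85 with slide as a block, 3.29 and 2.41 within slides 1 and 2) became -2.04 with 1 probe per name and so describes neither set. Cathepsin l is a cysteine protease found in lysosomes and, in shrimps, in digestive secretions. Cathepsin l (cluster023289) had levels of 11.07, 11.67 and 10.09 in the hepatopancreas, against 2.04, 2.60 and 1.94 in the lymphoid organ (8.75 ± 0.54, 431-fold, adjusted p = 6.85e-06). The 4 other cathepsin l probes were lower in the hepatopancreas, by 5.59 to 6.21. Among them, cathepsin l (cluster021263) had levels of 4.49, 3.68 and 3.61 in the hepatopancreas, against 8.48, 10.12 and 9.96 in the lymphoid organ.

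Cathepsin c, a dipeptide-removing protease, was higher for 12 of 14 probes (by 6.85 to 9.24) and lower for 2. Both lower ones were detected on no hepatopancreas array, and cathepsin c (cluster004717) was at least 27.6-fold lower there. Cathepsin d, an aspartic protease, was higher for 4 probes and lower for 1. Cathepsin d (cluster027031) had levels of 9.35, 9.89 and 8.02 in the hepatopancreas, against -0.10, 0.36 and -0.18 in the lymphoid organ (9.06 ± 0.58, adjusted p = 6.85e-06). Cathepsin d (cluster036714) had levels of 1.15, 2.32 and 2.07 in the hepatopancreas, against 3.99, 5.26 and 5.66 in the lymphoid organ (-3.13, adjusted p = 0.00354). All 3 cathepsin b probes and both saposins, activators of sphingolipid breakdown, were lower in the hepatopancreas, by 4.80 to 5.09 and by 3.92 to 4.77. Legumain, an asparagine-specific protease, was higher for 3 of 4 probes.

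**Figure D4:**
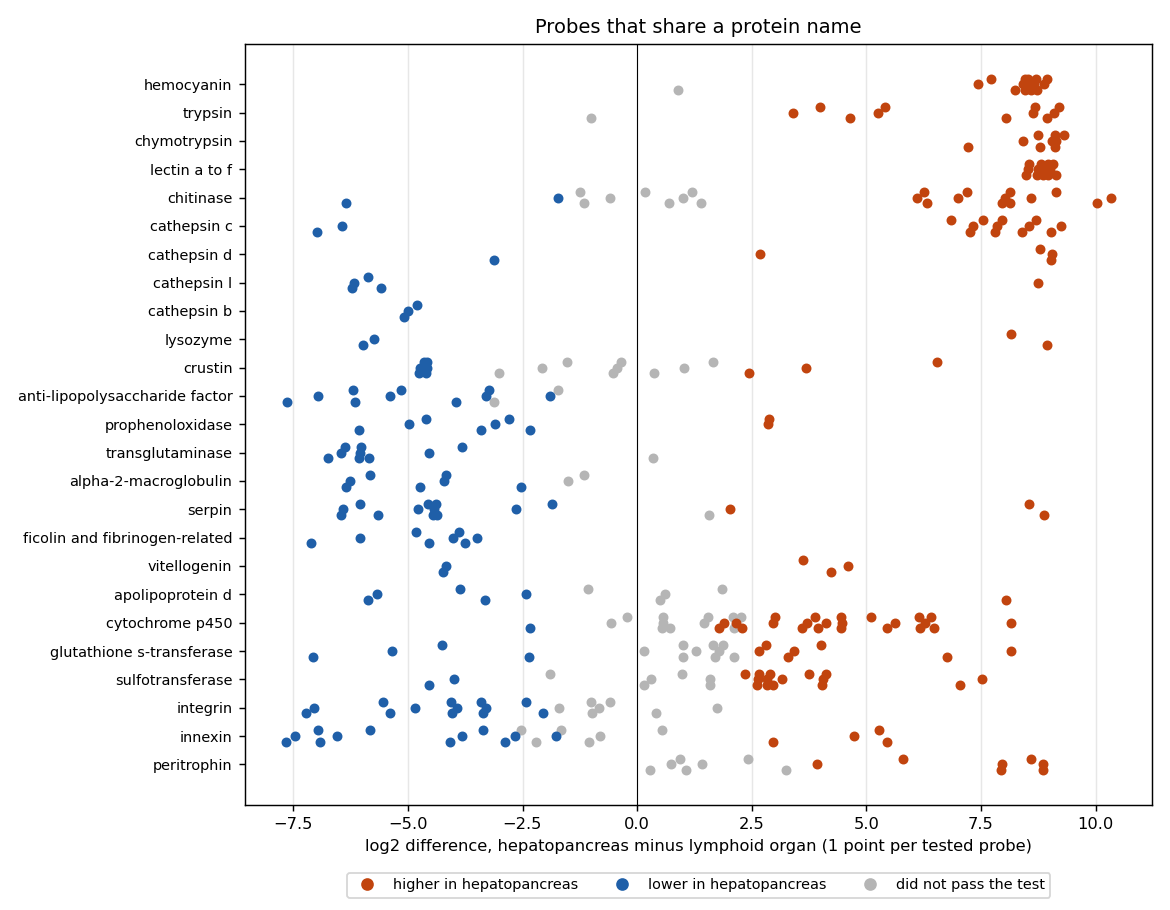
Log2 differences, hepatopancreas minus lymphoid organ (horizontal axis), of the tested probes in 25 groups of probes that share a protein name, 1 point per probe, orange where higher, blue where lower and grey where the test was not passed. Hemocyanins, trypsins, chymotrypsins and lectins a to f lie to the right, transglutaminases, anti-lipopolysaccharide factors and fibrinogen-related proteins to the left, and cathepsins c, d and l, lysozymes, crustins and vitellogenins hold probes on both sides.

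Genes of clotting and melanisation, processes carried out by hemocytes, were largely lower in the hepatopancreas. Of 40 tested probes, 7 were higher and 25 lower, with a median of -3.24 (-2.86 with slide as a block, -3.13 and -2.81 within slides 1 and 2). Transglutaminases, which cross-link the clot, were lower in 9 of 10 probes, and 0 were higher. Hemocyte transglutaminase (cluster016661) had levels of -0.64, -3.16 and -1.67 in the hepatopancreas, against 6.30, 5.17 and 2.43 in the lymphoid organ (-6.46 ± 0.98, 87.9-fold, adjusted p = 0.000819). Hemolectin cg7002-pa (cluster026505), named for a clotting protein of Drosophila, was 103-fold lower in the hepatopancreas (-6.69 ± 0.72, adjusted p = 8.76e-05). Prophenoloxidase, the melanin-forming enzyme, was lower in 7 of 9 probes and higher in 2. The higher ones, cluster030055 and the title propob, differed by 2.86 and 2.87.

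The hemocyte markers were probes named for transglutaminase, prophenoloxidase, penaeidin, peroxinectin, hemocytin, crustin or clotting. Many of them belong to the groups above, so their counts are not separate evidence. The log2 summed signal of 41 hemocyte marker probes ran from 7.97 to 9.41 in the hepatopancreas and from 8.17 to 8.89 in the lymphoid organ, and so overlapped, against 11.5 to 12.4 in hemocytes. Most of the sum on each hepatopancreas array came from the crustin p probe named above as higher in the hepatopancreas. The overlap of the sums therefore does not show similar hemocyte content. The median over the 41 marker probes ran from -2.66 to -0.75 in the hepatopancreas and from 0.09 to 0.93 in the lymphoid organ. Of 37 tested markers, 8 were higher and 18 lower. Of the markers, 3 were detected on no hepatopancreas array and 1 on no lymphoid organ array. In 654 of the 1297 probes lower in the hepatopancreas (50.4%) the mean level in hemocytes was above that in the lymphoid organ, and so it was in 50.5% of all tested probes. The part of hemocytes in these differences was not tested.

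Protease inhibitors, which restrain clotting and melanisation cascades, were higher in 6 and lower in 25 of 43 tested probes (median -2.64, or -2.73 with slide as a block, -2.07 and -2.53 within slides 1 and 2). Alpha-2-macroglobulins, broad inhibitors that trap proteases, were lower in 7 of 9. The title alpha2-macroglobulin homolog had levels of -1.80, -3.38 and -3.01 in the hepatopancreas, against 4.88, 3.42 and 2.55 in the lymphoid organ (-6.35 ± 0.71, 81.4-fold, adjusted p = 0.000107), and its mean in hemocytes was 8.2. Kazal-type serine proteinase inhibitor 4 (cluster001865) was 467-fold higher in the hepatopancreas, at 9.30, 9.84 and 8.39 there, against -0.38, 0.14 and 1.17. It was the only higher one of 5 tested kazal probes, of which 1 was lower (-4.39) and 3 did not pass.

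The largest difference on the lymphoid organ's side belonged to gamma-glutamyl hydrolase (cluster000697), a lysosomal enzyme that shortens folate side chains. Its levels were -1.60, -3.76 and -3.54 in the hepatopancreas, where 2 of 3 arrays detected it, against 3.86, 5.35 and 6.35 in the lymphoid organ (-8.16 ± 0.79, 286-fold, adjusted p = 4.26e-05). K9 (cluster015259), a sequence named from another penaeid, followed at 236-fold. Its hepatopancreas arrays were spread, at 3.69, -0.18 and -2.14, against 7.13, 9.75 and 8.13 in the lymphoid organ (-7.88 ± 1.27, adjusted p = 0.00117). Serine protease 14 (cluster000516) was 220-fold lower in the hepatopancreas (-7.78 ± 0.73, adjusted p = 3.46e-05). Only 1 of 3 hepatopancreas arrays detected it, so this fold rests partly on undetected signal. With a common floor under the signals the difference was -6.48.

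Integrins and innexins were more often lower than higher in the hepatopancreas. Of 20 tested integrin probes, receptors that tie cells to the matrix, 13 were lower and 0 higher. Integrin alpha-5 (cluster000475) had levels of -1.27, -3.51 and -2.75 in the hepatopancreas, against 5.05, 4.66 and 4.41 in the lymphoid organ (-7.22 ± 0.64, 149-fold, adjusted p = 2.46e-05). Basement membrane-specific heparan sulfate proteoglycan core protein (perlecan, cluster017999), a component of basement membranes, had levels of -1.15, -1.34 and -3.01 in the hepatopancreas, against 3.60, 4.12 and 3.67 in the lymphoid organ (-5.63 ± 0.61, adjusted p = 8.92e-05), and its mean in hemocytes was -2.8. The list of matrix proteins and integrins had 6 higher and 28 lower of 75, and 41 did not pass (11 higher without hepatopancreas 4). Its median was -0.96 (-0.86 with slide as a block, -1.02 and -0.98 within slides 1 and 2), but 0.58 over the members detected on all 6 arrays.

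Innexins, the gap junction proteins of invertebrates, were lower in 12 and higher in 4 of 22 tested probes. Innexin inx3 (cluster021911) had levels of -1.79, -4.65 and -3.01 in the hepatopancreas, against 4.51, 4.83 and 4.18 in the lymphoid organ (-7.65 ± 0.72, 201-fold, adjusted p = 3.56e-05). Another innexin inx3 (cluster034292) was 7.78-fold higher in the hepatopancreas. In the wider list of actin cytoskeleton and adhesion 13 of 102 probes were higher and 29 lower, and 60 did not pass (median -1.18, or -1.22 with slide as a block, -1.19 and -1.22 within slides 1 and 2). Against that direction, actin (cluster028590) had levels of 6.65, 6.19 and 6.58 in the hepatopancreas, against 0.06, -1.54 and -1.71 in the lymphoid organ (7.54 ± 0.59, adjusted p = 1.18e-05), while 14 of 19 actin probes did not pass.

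Vesicle traffic genes were rarely higher in the hepatopancreas. Of 124 tested probes for endocytosis and small GTPases, the switch proteins of vesicle transport, 40 (32.3%) were lower and 2 higher (8 without hepatopancreas 4), with a median of -1.28 (-1.25 with slide as a block, -1.52 and -1.05 within slides 1 and 2). Ras-related and estrogen-regulated growth inhibitor (cluster028684) differed by -6.23 ± 0.56, at -1.74, -1.47 and -2.34 in the hepatopancreas, against 5.21, 3.98 and 3.95 in the lymphoid organ.

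Immune signalling genes numbered 6 higher and 15 lower of 71 tested (9 lower with slide as a block; median -0.67, or -0.68 with slide as a block, -0.61 and -0.88 within slides 1 and 2). The called share of 29.6% was near the 27.0% of all tested probes. Tumor necrosis factor ligand, a cytokine, had levels of -1.52, -0.89 and -1.32 in the hepatopancreas, against 5.58, 4.21 and 3.79 in the lymphoid organ (-5.77 ± 0.59, 54.6-fold, adjusted p = 6.14e-05), and a mean of -0.9 in hemocytes. Immune deficiency homolog, the adaptor of the IMD pathway, was 27.7-fold lower in the hepatopancreas (-4.79 ± 0.73, adjusted p = 0.00087). A toll-like receptor (cluster016629), a receptor for signals of infection, was 36.9-fold higher in the hepatopancreas, at 2.29, 3.46 and 0.59 there, against -2.05, -4.29 and -2.94. It was the only higher one of 6 tested probes with a toll name, of which 1 was lower (-4.66) and 4 did not pass.

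Membrane transporters differed in both directions, with 21 of 116 tested solute carriers higher and 26 lower (16 lower with slide as a block, 32 higher without hepatopancreas 4; median 0.17, or 0.35 with slide as a block, 0.68 and 0.03 within slides 1 and 2). Solute carrier organic anion transporter family member 5a1-like (cluster036500) was detected on no lymphoid organ array and was at least 103-fold higher in the hepatopancreas. Sodium-bile acid cotransporter (cluster007595) was 44.2-fold higher in the hepatopancreas (5.47 ± 0.72, adjusted p = 0.000324). Sodium-coupled monocarboxylate transporter 1 (cluster017578), which carries lactate and short fatty acids, had levels of -3.04, -3.99 and -3.45 in the hepatopancreas, against 6.80, 3.28 and 1.26 in the lymphoid organ (-7.27 ± 1.14, 155-fold, adjusted p = 0.00101). Its lymphoid organ arrays were spread, and its mean in hemocytes was -4.7. Only 1 of 3 hepatopancreas arrays detected this transporter, and with a common floor under the signals the difference was -6.19.

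Counts for genes of general cell upkeep depended on the arrays and the scaling. Of 90 tested probes for cytosolic ribosomal proteins 0 were higher and 2 lower, with a median of 0.14 (0.01 with slide as a block, -0.02 and 0.07 within slides 1 and 2). Quantile normalization gave them a median of -0.90 and 11 lower. Oxidative phosphorylation had 2 higher and 1 lower of 85, and DNA replication and cell division 9 higher and 5 lower of 112. Proteasome subunits, which degrade tagged proteins, had 1 higher and 4 lower of 38 and a median of -0.99 (-1.14 with slide as a block, -1.67 and -0.57 within slides 1 and 2). Without hepatopancreas 4, oxidative phosphorylation had 9 higher and 2 lower, DNA replication 14 higher and 18 lower, and the proteasome 1 higher and 15 lower. With slide as a block DNA replication had 2 higher and 4 lower and the proteasome 1 of each, and quantile normalization gave the proteasome 17 lower. The counts do not show equal levels, since for 0 tested probes did the 95% interval of the difference lie within 2-fold. Transcription regulators had 14 higher and 42 lower of 342 (11 and 26 with slide as a block, 23 and 75 without hepatopancreas 4) and a median of -0.48 (-0.59 with slide as a block, -0.65 and -0.49 within slides 1 and 2).

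The counts of other metabolic groups are read against the 27.0% of all tested probes that were called. Glycolysis and gluconeogenesis had 2 higher and 5 lower of 29 (6 and 3 with slide as a block). Glucose-6-phosphatase (cluster013287), the enzyme that releases free glucose, was higher in the hepatopancreas and detected on no lymphoid organ array. L-lactate dehydrogenase (cluster005639) was 14.9-fold lower in the hepatopancreas (-3.90 ± 0.69, adjusted p = 0.0021). Amino acid catabolism had 9 higher and 3 lower of 50 (15 and 6 without hepatopancreas 4), among them s-adenosylmethionine synthase-like isoform 1 (cluster003272), which makes the methyl donor of the cell, 67.1-fold higher. Fatty acid oxidation and synthesis had 3 higher and 1 lower of 22 (1 and 0 with slide as a block, 6 and 1 without hepatopancreas 4), and fatty acid synthase (cluster009429) was 3.15-fold higher (1.65 ± 0.48, adjusted p = 0.0292), a call lost with slide as a block.

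**Figure D5:**
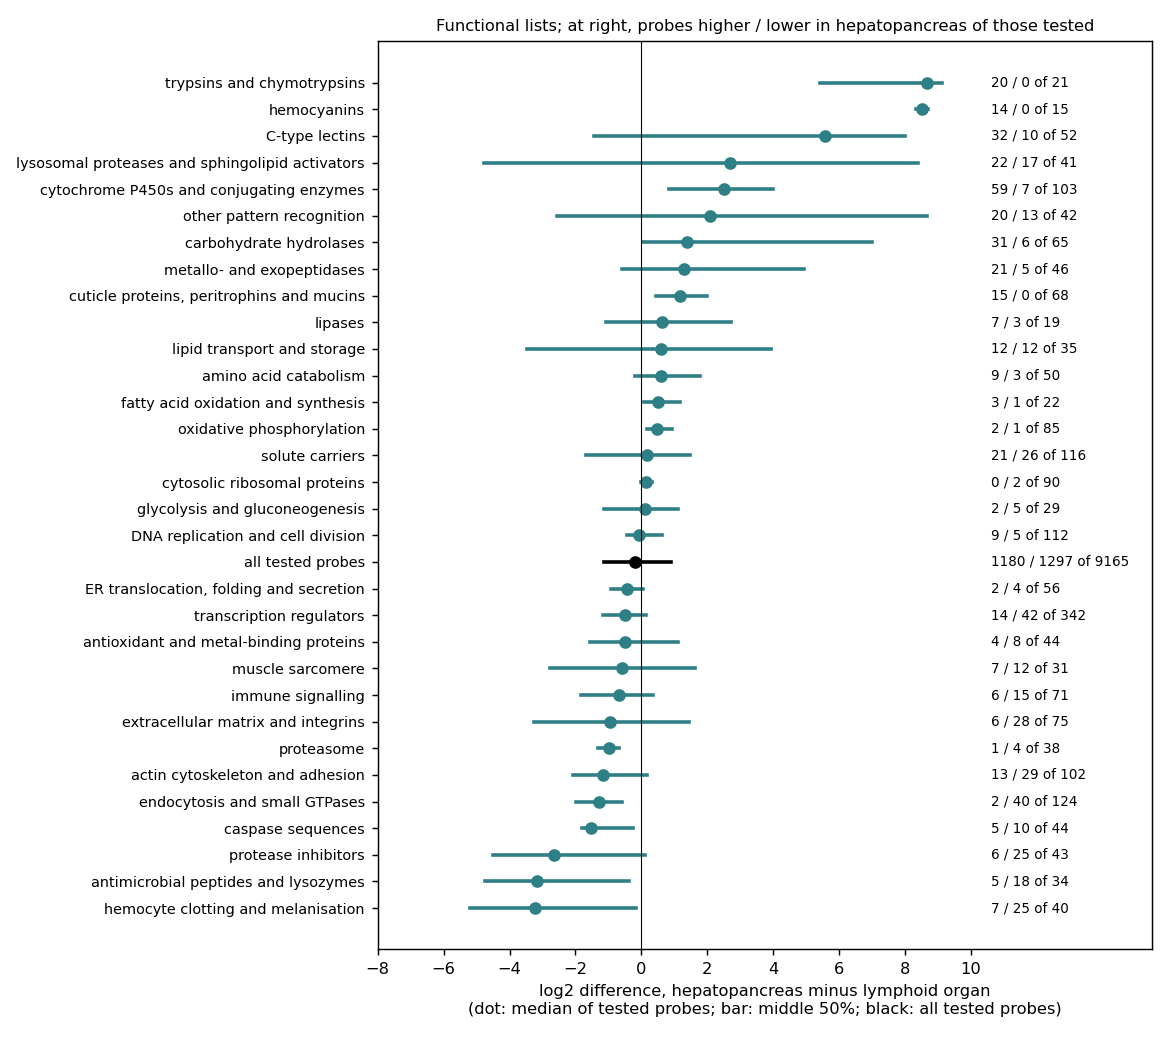
Median log2 difference, hepatopancreas minus lymphoid organ (horizontal axis; dots), with the middle 50% of probes (bars) for 31 functional lists and, in black, all 9165 tested probes. The numbers at right give the probes higher and lower in the hepatopancreas; trypsins and chymotrypsins (8.67) and hemocyanins (8.50) lie farthest right, and hemocyte clotting and melanisation (-3.24) and antimicrobial peptides and lysozymes (-3.18) farthest left.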

How the data were processed

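Per the labels, total RNA was labelled with Cy3 and hybridised to custom arrays, 1 sample per array. The deposited file holds, per its headers, processed signal intensity in linear units and a detection flag (Detected, Not Detected or Compromised) for each probe and array, made by the authors with Agilent Feature Extraction 10.7.3.1 per the submitters' processing notes. Saturation flags were not used here, so the brightest signals may be compressed without a mark. A second deposited table holds the authors' values on a log2 scale. Set against the scanner signals, each of its columns was log2 of the signal minus a constant close to the array's 75th percentile, with no centring of probes. Its column medians ran from -2.36 to -2.02 for the hepatopancreas and from -2.24 to -2.06 for the lymphoid organ. It served as an alternative.

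Signals were divided by the 75th percentile of their array over all 13349 probes of the comparison and log2-transformed, and compromised spots were set to missing (71 tested probes had a missing spot). That percentile was 35.9, 40.4 and 134 in hepatopancreas arrays 1, 3 and 4, against 184, 123 and 108 in lymphoid organ arrays 1, 2 and 3, and the lowest detected level was -2.41, -2.62 and -4.41, against -4.98, -4.04 and -3.79. With 3 arrays per tissue, their number limits the precision. limma 3.58.1 in R 4.3.3 fitted the 6 arrays (4 residual and 6.05 prior degrees of freedom, trended), with Benjamini-Hochberg adjustment over the 9165 probes. A call needed an adjusted p below 0.05 and a difference of at least 2-fold. The 4184 probes detected too rarely were not tested. The procedure was checked on simulated data.

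Named probes were the 15 with the largest difference in each direction (1 per description, the bound where undetected) and up to 4 called members of each of 31 lists with the largest differences. The rule also asked for the 10 probes most surely within 2-fold and found 0. Words in the probe names set the lists, which were refined on names alone. Other members named here, and the groups of probes that share a name, were chosen after their values were seen. The members and lists were chosen with earlier results of these data known. List counts carry no test of their own. Of the sequence titles, 0 were matched to RefSeq by accession, so names were used as given. Alternatives covered scaling, quantile normalization, detection filters, floors, slide or replicate number as a block, array weights, all 16 arrays in the fit and each array left out.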

Additional observations from a re-analysis of the deposited data

How the results depend on the processing

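The 133 named probes kept their sign under every alternative that gave them a value, and a call was lost in 201 of 3118 probe and alternative pairs. They were picked for large differences on the same arrays, so this does not hold for calls in general. The probes higher in the hepatopancreas numbered 1180, and 682 when only probes detected on all 6 arrays were kept, 522 within slide 2 and 658 with 1 probe per description. Those lower numbered 1297, and 457, 324 and 838 under the same settings, 509 within slide 1 and 1972 with array weights. Leaving out 1 array gave 827 to 1710 higher and 831 to 1956 lower. The share of calls that were higher was 47.6%, and 60.4% with all 16 arrays scaled to probes detected on all of them, which moved the median of all probes by 0.49, 59.9% over probes detected on all 6 arrays, and 63.3% and 61.7% within slides 1 and 2. Quantile normalization moved that median by -0.13. Probes whose interval lay within 2-fold numbered 0, but 1 (authors' value table, and without caspase isolates), 2 (quantile normalization, common-probe scaling, stricter filter, all 6 arrays), 4 (floor at the lowest detected signal), 20 (1 per description), 22 (replicate block), 23 (array weights), 108 (all 16 arrays), 135 (all 16 with common-probe scaling), 0 to 9 (1 array left out) and 1451 (common floor, which sets low signals equal).

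List medians changed sign for lysosomal proteases (-2.04) and C-type lectins (-0.25) with 1 probe per description. They did for glycolysis within slide 1 (-0.16), with the replicate block (-0.049) and with 1 array left out (range -0.23 to 0.45), and for solute carriers with 1 array left out (-0.075 to 0.46). ER translocation reached 0.064 and transcription regulators 0.0074 with all 16 arrays and common-probe scaling. Ribosomal proteins gave -0.90 with quantile normalization, -0.022 within slide 1 and -0.059 to 0.25 with 1 array left out, and oxidative phosphorylation -0.082 with quantile normalization. DNA replication gave 0.22 with no filter, 0.052 with a stricter filter, 0.29 with a floor, 0.072 with a common floor, 0.32 over probes detected on all 6 arrays, 0.42 with all 16 and common-probe scaling, 0.21 within slide 2, and -0.56 to 0.33 with 1 array left out. Matrix and integrins gave 0.58 over probes detected on all 6 arrays, and muscle sarcomere 0.51 with no filter. The cause was not tested, except that filters and 1 probe per description change which probes are counted.

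The labels do not pair arrays of the same number, and the tissues share only numbers 1 and 3. The deviations of same-numbered arrays correlated at -0.07 and 0.22, and with the replicate number as a block 1483 probes were higher and 1454 lower. Dim probes limit the comparison: hepatopancreas arrays 1 and 3 had the highest detection floors, so low levels there carry more error.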

Other observations

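Caspases, proteases of programmed cell death, differed by name. Of 44 tested probes on this list 5 were higher and 10 lower in the hepatopancreas (median -1.52), and with slide as a block 4 were lower (median -1.15). The called share was 34.1%, against 27.0% of all tested probes. Caspase (cluster001081) had levels of 2.44, 2.31 and 2.63 in hepatopancreas arrays 1, 3 and 4, against -3.22, -3.44 and -3.21 in the lymphoid organ (5.75 ± 0.49, 53.8-fold, adjusted p = 2.06e-05). Death caspase-1 (cluster002549) was at least 35.7-fold higher in the hepatopancreas, and caspase 2 (cluster024846) was 7.36-fold lower there (-2.88 ± 0.63, adjusted p = 0.00731).

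Antioxidant and metal-binding proteins were higher in 4 and lower in 8 of 44 tested probes (median -0.49), with 4 lower under the slide block and 9 higher without hepatopancreas 4. The called share of 27.3% was near the 27.0% of all tested probes. Ferritin (cluster033938), the iron store, had levels of 5.28, 6.33 and 6.26 in the hepatopancreas, against 1.97, 1.05 and 1.60 in the lymphoid organ (4.42 ± 0.53, 21.4-fold, adjusted p = 0.000166). It was the only higher one of 5 tested ferritin probes, of which 1 was lower (-2.95) and 3 did not pass. Glutathione peroxidase 6 precursor (cluster022659), a peroxide-reducing enzyme, was 80.2-fold lower in the hepatopancreas (-6.33 ± 0.88, adjusted p = 0.000467). Peroxiredoxins also parted: peroxiredoxin 3 (cluster014093) was 9.34-fold higher and peroxiredoxin prdx5 (cluster011136) 11.8-fold lower in the hepatopancreas. Of 10 tested kynurenine pathway probes, which stand for tryptophan breakdown, 4 were higher and 2 lower. Kynurenine alpha-aminoadipate mitochondrial (cluster007136) was at least 124-fold higher in the hepatopancreas, with no detection in the lymphoid organ, and the probe with -like added to that name (cluster009684) was lower, with no detection in the hepatopancreas.

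Of 31 sarcomere probes, 7 were higher and 12 lower in the hepatopancreas, but under the slide block 2 were higher and 9 lower, and slides 1 and 2 taken alone gave 3 and 5, and 0 and 2. Troponin t-like (cluster028357) was 22.7-fold higher in the hepatopancreas (SE of the log2 difference 0.66, adjusted p = 0.000625), and the title sarcoplasmic calcium-binding protein was 18.8-fold lower (-4.23 ± 1.22, adjusted p = 0.0275). The log2 summed signal of 29 muscle marker probes was 8.17 to 9.12 in the hepatopancreas and 7.13 to 7.89 in the lymphoid organ, against 15.3 to 16.2 in muscle, and its part in these differences was not tested.

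White spot virus probes were flagged as detected in 74, 95 and 108 of 526 cases on hepatopancreas arrays 1, 3 and 4, and in 138, 85 and 97 on lymphoid organ arrays 1, 2 and 3, with array medians of -4.16 to -6.32 and -5.48 to -6.37. These were 14.1 to 26.2% of the virus probes, against 50.3 to 84.5% of the probes compared. On each of these arrays the virus median lay below the lowest detected level of the probes compared. The presence of viral RNA was not tested.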
